A study of Homo sapiens with 16 samples.

Results

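A498 cells with reduced DGAT1 and DGAT2 were set directly against A498 cells in low oxygen, to find the genes that tell these 2 single stresses apart. The A498 line, from a human kidney cancer of the clear cell type, has no working VHL protein, the factor that marks HIF for destruction when oxygen is present. Of the 16 arrays of the study, 4 held doxycycline-treated normoxic cells and 4 held vehicle-treated hypoxic cells, chosen by their titles. A further 4, vehicle-treated normoxic cells, served as the reference for every gene named. The last group, doxycycline in hypoxia, entered the fit only as part of the estimate of spread. All cells, the vehicle groups included, carried doxycycline-inducible hairpins against DGAT1 and DGAT2 in lentiviral Tet-pLKO vectors, and all grew in low serum. Vehicle or doxycycline was given for 5 days, and exposure to normoxia or to hypoxia at 0.5% oxygen lasted 2 days. The study places the 5 days of doxycycline before this exposure. No doxycycline-treated cells without the hairpins were among the arrays, so the agent and the depletion cannot be told apart, and each transcript was targeted by 1 hairpin.

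The table held 70523 probe sets. Those with exactly 1 gene symbol were kept, and the brightest was used for each gene, which left 22411 genes compared. Values are levels on the deposited log2 scale, where a difference of 1 is a doubling, and the median level over all genes was 4.89. Unless stated otherwise a difference is doxycycline normoxia minus vehicle hypoxia with its standard error, n = 4 arrays per group, and a gene is called where its adjusted p lies under 0.05 (limma, Benjamini-Hochberg over all genes). Whether the cultures behind the replicate arrays were kept apart is not said in the labels, so p-values measure the spread between these arrays. Markers chosen for a renal carcinoma line lay above the median gene on all arrays of the 3 groups: the 7 markers PAX8, PAX2, KRT8, KRT18, VIM, CDH2 and CDH6 lay between 5.71 and 15.37, with PAX2 the lowest. Of the defining markers of other cell types, 5 of 6 for leukocytes lay between 3.01 and 5.23, all 4 for endothelium between 2.80 and 4.03, and all 5 for fibroblasts and pericytes between 3.06 and 4.89. The leukocyte marker left, CD68, lay at 12.16 in both stressed groups. In the longer marker lists 3 of 25 measured leukocyte genes, 1 of 16 endothelial and 1 of 15 fibroblast and pericyte genes lay above the median gene, among them ITGAX and ACTA2, whose values are given with those lists. In bulk RNA, fewer cells of a type and less RNA per cell cannot be told apart. One hypoxic array stood apart: on the first axis of the deviations from group means, which held 63.3% of that variance, vehicle hypoxia replicate 4 lay at 45.8 and doxycycline hypoxia replicate 4 at -31.5, against -26.1 to 22.9 for the others.

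DGAT1 and DGAT2 encode the acyltransferases that add the last fatty acid to diacylglycerol and so complete triglyceride, the neutral lipid kept in lipid droplets. Storing fatty acids in this form keeps them out of membranes and signalling lipids, and clear cell renal carcinoma is known for its large droplets. Low oxygen acts on lipids from another side, since the desaturase that makes unsaturated fatty acids needs oxygen, and it stabilises HIF in cells that have VHL.

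The hairpin targets separated the groups completely. DGAT1 was at 5.04, 5.13, 5.20 and 5.09 on the doxycycline normoxia arrays and at 6.49, 6.57, 6.70 and 6.24 on the vehicle hypoxia arrays. In vehicle normoxia it was at 6.86, 6.67, 6.77 and 6.99. The direct difference was -1.39 ± 0.09 (adjusted p = 2.44e-07), so that 38.3% of the hypoxic signal was left (95% confidence interval 33.5 to 43.6). DGAT2 was at 5.13, 5.44, 5.09 and 5.18 against 6.58, 6.73, 6.50 and 6.26, with 7.18, 6.93, 7.08 and 6.95 in vehicle normoxia. Its direct difference was -1.31 ± 0.10 (adjusted p = 1.03e-06), with 40.3% left (34.9 to 46.5). No doxycycline array reached the lowest hypoxic array for either gene, and the exact two-sided permutation test over the 70 arrangements of 4 against 4 arrays gave p = 0.0286 for each, the smallest it allows. Hypoxia alone also had less of both: vehicle hypoxia lay 0.52 below vehicle normoxia for DGAT2 (-0.52, adjusted p = 0.00588) and at -0.32 for DGAT1 (adjusted p = 0.0438).

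Across all genes, 1739 were higher in doxycycline normoxia than in vehicle hypoxia (7.76% of those tested) and 836 were lower (3.73%). The lower count was 536 without vehicle hypoxia replicate 1 and 556 without doxycycline normoxia replicate 4, and array weights gave 3525 higher and 2979 lower. Differences of at least 1.5-fold were met by 365 of the higher and 256 of the lower genes, and of at least 2-fold by 65 and 59. The 4 and 4 arrays did not overlap for 1599 of the higher and 709 of the lower genes. Over all genes, called or not, 15.3% had arrays that did not overlap. The median difference was 0.01.

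**Figure D1:**
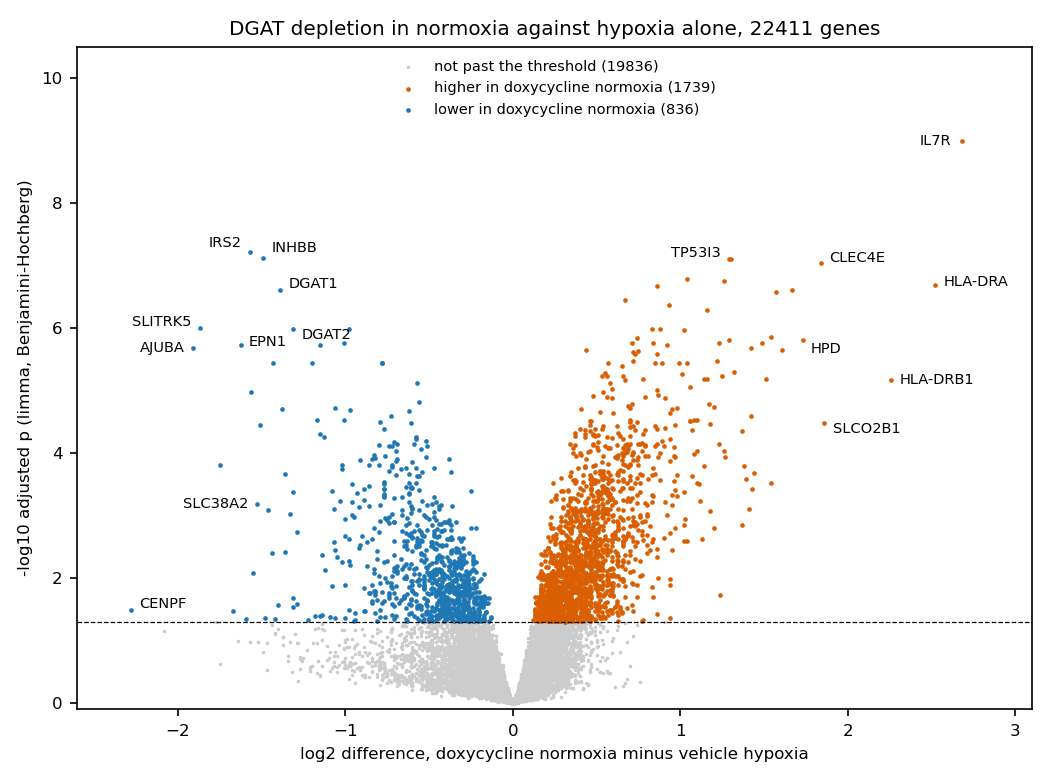
Each point is a gene, with the log2 difference between doxycycline normoxia and vehicle hypoxia on the x axis and -log10 of the limma adjusted p on the y axis; the dashed line is the threshold of 0.05. The 1739 orange genes were higher after DGAT depletion, led by IL7R and HLA-DRA, and the 836 blue genes were higher in hypoxia, with CENPF at the far left but close to the threshold.

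The level in vehicle normoxia shows from which side a difference came. Among the 1739 higher genes the reference mean lay between the 2 stressed groups for 628 nearer doxycycline normoxia (36.1%) and for 660 nearer vehicle hypoxia (38%), and outside both for 208 nearer doxycycline normoxia and 243 nearer vehicle hypoxia. Among the 836 lower genes it lay between them for 257 nearer doxycycline normoxia and 331 nearer vehicle hypoxia. Set against the reference by itself, doxycycline normoxia had 993 higher genes (4.43%) and 1042 lower (4.65%). Vehicle hypoxia had 506 higher (2.26%) and 1043 lower (4.65%). Both of these comparisons use the same 4 reference arrays, so their values are only given side by side below.

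A first group of leading genes stood away from the reference after DGAT depletion and near it in hypoxia. IL7R, which encodes the alpha subunit of the receptor for interleukin-7, was at 8.02, 7.70, 8.12 and 7.91 in doxycycline normoxia and at 5.21, 5.16, 5.21 and 5.47 in vehicle hypoxia. Its 4 reference arrays were at 5.21, 5.48, 5.55 and 5.48, overlapping hypoxia. The direct difference of 2.68 ± 0.10 (6.39-fold, adjusted p = 1.01e-09) was the largest of all increases. SLCO2B1, an organic anion transporter, was at 10.26, 10.36, 10.28 and 10.30 against 8.60, 8.19, 9.03 and 7.96, with the reference at 8.14, 7.92, 8.01 and 7.95 (difference 1.86 ± 0.20, adjusted p = 3.32e-05). NT5E, the ecto-enzyme CD73 that makes extracellular adenosine from AMP, was at 9.31, 9.23, 9.60 and 9.44 against 7.84, 7.63, 7.66 and 8.01, with a reference mean of 8.16 (1.61 ± 0.13, adjusted p = 2.22e-06). In none of these 3 genes did the stressed groups overlap. The long noncoding RNA SFTA1P (1.67 ± 0.11, reference 7.06), the membrane protein gene EMP1 (1.54 ± 0.22, reference 10.47) and TMEM52B (1.54 ± 0.12, reference 4.76) completed the rule's leading genes of this kind, with adjusted p of 2.44e-07, 0.000304 and 1.37e-06.

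Other genes on this side, chosen after their values were seen, included C3, the central complement component. It was at 11.88, 12.10, 11.93 and 11.89 in doxycycline normoxia against 10.56, 10.81, 10.59 and 10.16 in vehicle hypoxia, and the reference mean of 10.53 equalled that of hypoxia (1.42 ± 0.12, adjusted p = 2.1e-06). The carboxypeptidase gene CPA4 had the same shape, with a difference of 1.39 ± 0.19 and a reference mean of 7.11 (adjusted p = 0.000261). So did THBS1, which encodes the matricellular protein thrombospondin-1, at 1.10 ± 0.16 with a reference of 9.07 (adjusted p = 0.000304). The oncogenic long noncoding RNA CCAT1 differed by 1.37 ± 0.15 with a reference of 6.87 (adjusted p = 4.46e-05).

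Other leading genes were below the reference after depletion alone. AJUBA, a LIM-domain scaffold protein, was at 9.73, 9.98, 9.80 and 9.64 after depletion and at 11.76, 11.74, 12.02 and 11.25 in hypoxia, with reference arrays at 11.70, 11.33, 11.68 and 11.71. The difference was -1.91 ± 0.16 (adjusted p = 2.1e-06). SLITRK5, a synaptic adhesion protein, was at 4.94 to 5.19 against 6.44 to 7.23 (-1.87 ± 0.14, reference 6.78, adjusted p = 9.9e-07). EPN1, an endocytic adaptor, was at 6.37 to 6.52 against 7.60 to 8.41 (-1.62 ± 0.13, reference 8.04, adjusted p = 1.87e-06). CCNA1, a cyclin best known from the germ line, differed by -1.56 ± 0.15 with a reference of 8.54 (adjusted p = 1.04e-05). INHBB, a subunit of activin B and a HIF target, was at 12.37, 12.60, 12.33 and 12.31 against 13.89, 13.91, 13.96 and 13.78. Its reference arrays, 13.73, 13.74, 13.90 and 13.76, overlapped hypoxia and lay above every depleted array (-1.49 ± 0.08, adjusted p = 7.49e-08).

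**Figure D2:**
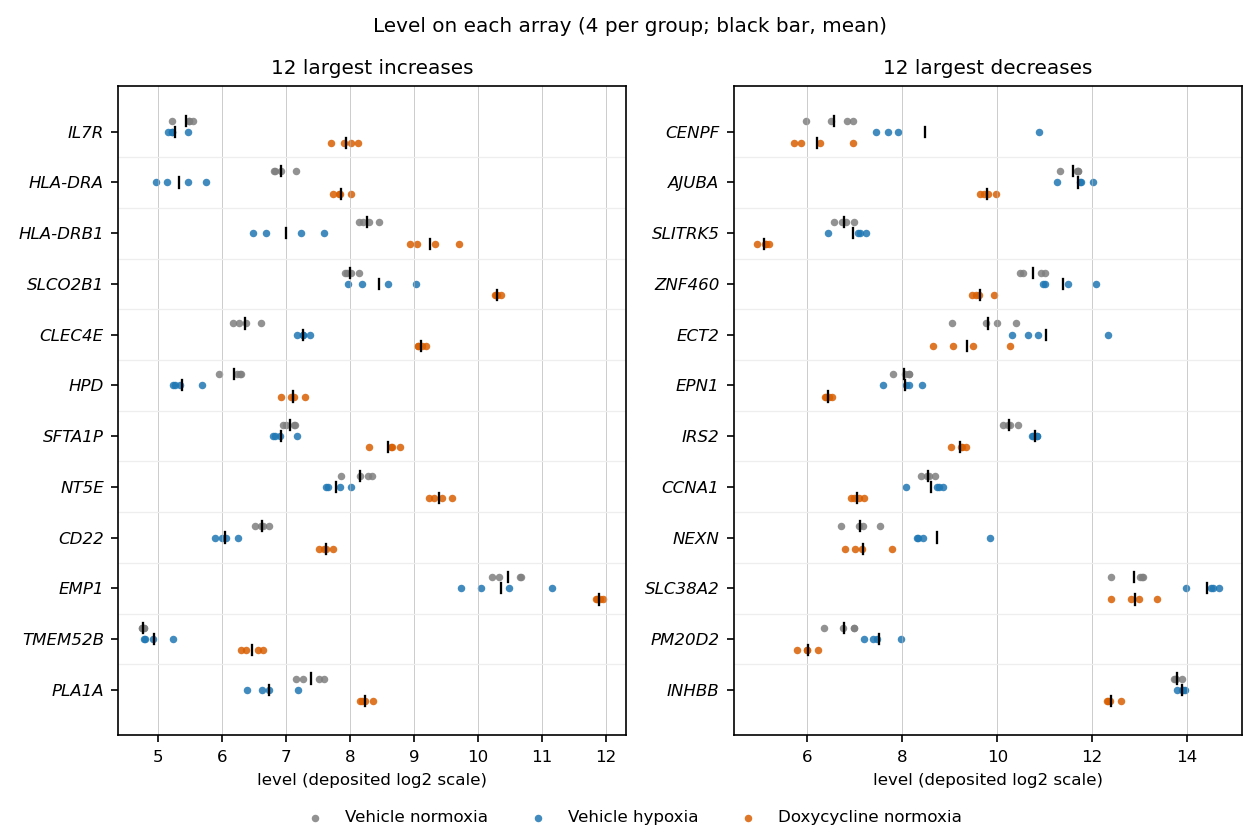
Each dot is 1 array's level on the deposited log2 scale and each black bar a group mean, for the 12 largest increases (left) and the 12 largest decreases (right) among called genes whose stressed groups did not overlap. Vehicle normoxia (grey) sat beside hypoxia for IL7R, AJUBA and INHBB, beside doxycycline normoxia for SLC38A2 and NEXN, and between them for HLA-DRA, HPD and IRS2; for CENPF 1 hypoxic array at 10.88 lay far from the other 3.

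In a second group hypoxia stood away from the reference and depletion did not. SLC38A2, a sodium-coupled neutral amino acid transporter, was at 14.51, 13.98, 14.55 and 14.67 in vehicle hypoxia and at 12.81, 12.40, 13.37 and 12.99 in doxycycline normoxia. The reference was at 12.39, 13.08, 13.01 and 13.04, overlapping the depleted arrays. The difference was -1.53 ± 0.24 (adjusted p = 0.000667). KLF6, a zinc-finger transcription factor of the immediate early group, was at 9.84 to 10.08 in hypoxia against 9.34, 9.19, 9.42 and 9.14, with a reference mean of 9.24 (-0.72 ± 0.10, adjusted p = 0.00017). NEXN, an actin-binding protein, was 1.55 lower after depletion (-1.55 ± 0.35, reference 7.12, adjusted p = 0.00846), where hypoxia replicate 4 at 9.85 stood above the 8.30 to 8.43 of the other 3. Of genes chosen after their values were seen, CYP1B1, a haem monooxygenase, was at 8.44 to 9.11 in hypoxia against 7.30 to 7.86 (-1.31 ± 0.19, reference 7.68, adjusted p = 0.000417). AMD1, which supplies the aminopropyl donor for polyamines, was at 11.86 to 12.73 against 10.27 to 11.40 (-1.36 ± 0.27, reference 11.03, adjusted p = 0.0038).

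Other genes were lower in hypoxia, with depleted arrays that overlapped the reference. TXNIP, the thioredoxin-interacting protein that restrains glucose uptake, was at 9.02, 9.68, 8.48 and 9.29 in vehicle hypoxia and at 10.61, 10.60, 10.51 and 10.27 in doxycycline normoxia. Its reference of 10.27, 10.36, 10.50 and 10.47 overlapped depletion (1.38 ± 0.18, adjusted p = 0.00016; chosen after its values were seen). ATP5MC1, a subunit of the c-ring of ATP synthase, differed by 0.71 ± 0.10 with a reference of 9.20 against 9.13 after depletion and 8.42 in hypoxia (adjusted p = 0.00036). TRIAP1, a p53 target that acts in mitochondrial lipid transfer, differed by 0.69 ± 0.09, with a reference of 8.83 (adjusted p = 0.000169). MRPL40, of the large mitochondrial ribosomal subunit, differed by 0.64 ± 0.11 with a reference of 8.30 (adjusted p = 0.00107).

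Another group moved away from the reference in opposite directions, and these genes gave some of the largest direct differences. HLA-DRA, the alpha chain of the class II antigen-presenting molecule HLA-DR, was at 7.84, 8.01, 7.83 and 7.73 after depletion. In hypoxia it was at 4.97, 5.74, 5.14 and 5.47, and in vehicle normoxia at 6.92, 6.81, 7.15 and 6.82. The 3 groups did not overlap, the direct difference was 2.52 ± 0.16 (adjusted p = 2.08e-07), and each stress by itself was called against the reference, at 0.93 for depletion (adjusted p = 0.00182) and -1.60 for hypoxia (adjusted p = 0.000102). HLA-DRB1, the partner chain, was at 9.33, 9.70, 9.05 and 8.94 against 7.24, 7.59, 6.49 and 6.68, with a reference mean of 8.27 (2.26 ± 0.21, adjusted p = 6.86e-06). Its probe set may also bind transcripts of the near-identical DRB copies HLA-DRB4 (0.91 ± 0.10) and HLA-DRB5 (0.44 ± 0.07), so the split between them is uncertain. Of 16 class II genes with their chaperone CD74 and their regulator CIITA, a set put together after values were seen, 9 were higher, 0 were lower and 7 were not called. Of all genes 7.76% were higher and 3.73% lower. The DRB genes are among the 9 and may share signal, so they are not separate members, and the count is no test. CD74, the invariant chain that guides class II molecules, was at 5.55 to 5.72 against 4.82 to 5.04 (0.74 ± 0.06, reference 5.40, adjusted p = 1.44e-06). HLA-DMA, which loads peptides, was at 7.85 to 8.12 against 6.83 to 7.40 (0.94 ± 0.12, reference 7.62, adjusted p = 0.000134), and against the reference hypoxia was called (-0.63) and depletion was not (0.31, adjusted p = 0.128). CIITA, the master regulator of class II transcription, lay below the median gene in all groups, at 4.47 to 4.54 against 4.16 to 4.32 (0.29 ± 0.04, reference 4.44, adjusted p = 0.000251), and against the reference hypoxia was called (-0.23) and depletion was not (0.06). HLA-DQA1 (-0.04 ± 0.06, adjusted p = 0.749) and HLA-DMB (0.02 ± 0.05, adjusted p = 0.843) were not called and lay at 4.70 or below on the stressed arrays.

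Metabolic and cell-surface genes shared this opposite pattern. HPD, an enzyme of tyrosine breakdown, was at 7.08, 7.30, 6.92 and 7.13 against 5.23, 5.69, 5.26 and 5.34, and the reference mean of 6.19 lay between (1.73 ± 0.13, adjusted p = 1.53e-06). CD22, a sialic-acid-binding lectin known from B cells, was at 7.51 to 7.74 against 5.89 to 6.25 (1.57 ± 0.10, reference 6.63, adjusted p = 2.61e-07). PLA1A, a phospholipase that makes lysophosphatidylserine, differed by 1.51 ± 0.14 (reference 7.38, adjusted p = 6.61e-06). ADA, which converts adenosine to inosine, was at 7.86 to 8.22 against 6.61 to 7.04 (1.22 ± 0.10, reference 7.43, adjusted p = 3.33e-06). In each of these 4 genes depletion was called above and hypoxia below the reference, with adjusted p between 3.17e-05 and 0.0123.

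The reverse, below the reference after depletion and above it in hypoxia, was seen in IRS2, the insulin receptor substrate. It was at 9.24, 9.25, 9.35 and 9.02 after depletion, at 10.73, 10.83, 10.83 and 10.76 in hypoxia and at 10.43, 10.26, 10.12 and 10.22 in vehicle normoxia, with no overlap among the 3 groups (-1.57 ± 0.08, adjusted p = 6.06e-08). PM20D2, a peptidase of the aminoacylase family, was at 5.78 to 6.23 against 7.20 to 7.98 (-1.51 ± 0.17, reference 6.76, adjusted p = 3.51e-05). RDH10, which oxidises retinol and was chosen after its values were seen, was at 12.68 to 12.91 against 13.80 to 14.56 (-1.38 ± 0.14, reference 13.51, adjusted p = 1.94e-05). ZNF460, a zinc-finger gene, differed by -1.75 ± 0.23 (reference 10.74, adjusted p = 0.000156), though hypoxia against the reference, at 0.65, was not called by itself (adjusted p = 0.105).

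A further group moved the same way in both stresses, and the direct difference then measured which stress moved it further. CLEC4E, a lectin receptor of innate immunity, was at 9.06, 9.07, 9.12 and 9.19 after depletion and at 7.38, 7.17, 7.26 and 7.27 in hypoxia, both above the 6.17, 6.60, 6.26 and 6.38 of the reference (1.84 ± 0.10, adjusted p = 9e-08). STC1, a secreted glycoprotein hormone, was at 12.42, 12.31, 12.66 and 12.40 against 10.94, 10.96, 11.15 and 10.77, both above the reference mean of 10.05 (1.49 ± 0.12, adjusted p = 1.73e-06). ODC1, the first enzyme of polyamine synthesis and chosen after its values were seen, was below its reference of 12.69 in both, at 11.70 to 11.86 after depletion and 10.68 to 11.19 in hypoxia, so that it was higher after depletion by 0.83 ± 0.13 (adjusted p = 0.000468).

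Some responses did not tell the stresses apart. IL6, the inflammatory cytokine, was at 7.72, 7.75, 7.62 and 7.57 after depletion and at 7.65, 7.82, 7.69 and 7.56 in hypoxia, with overlapping ranges, while the reference arrays were lower at 7.05, 6.94, 7.23 and 7.25. Its direct difference was -0.01 ± 0.08 (adjusted p = 0.947; 95% interval -0.19 to 0.16). PTGS2, the inducible cyclooxygenase, differed by -0.03 ± 0.05 (interval -0.14 to 0.08) and stood above its reference of 4.29 in both. PTGS2 lay below the median gene in each group, with means of 4.61 after depletion and 4.64 in hypoxia. ASNS, the asparagine synthetase induced by amino acid shortage, differed by 0.01 ± 0.08 (interval -0.16 to 0.19) and stood below its reference of 11.25 in both. These 3 genes were chosen after their values were seen, and the intervals are the range of differences that the 4 and 4 arrays leave.

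**Figure D3:**
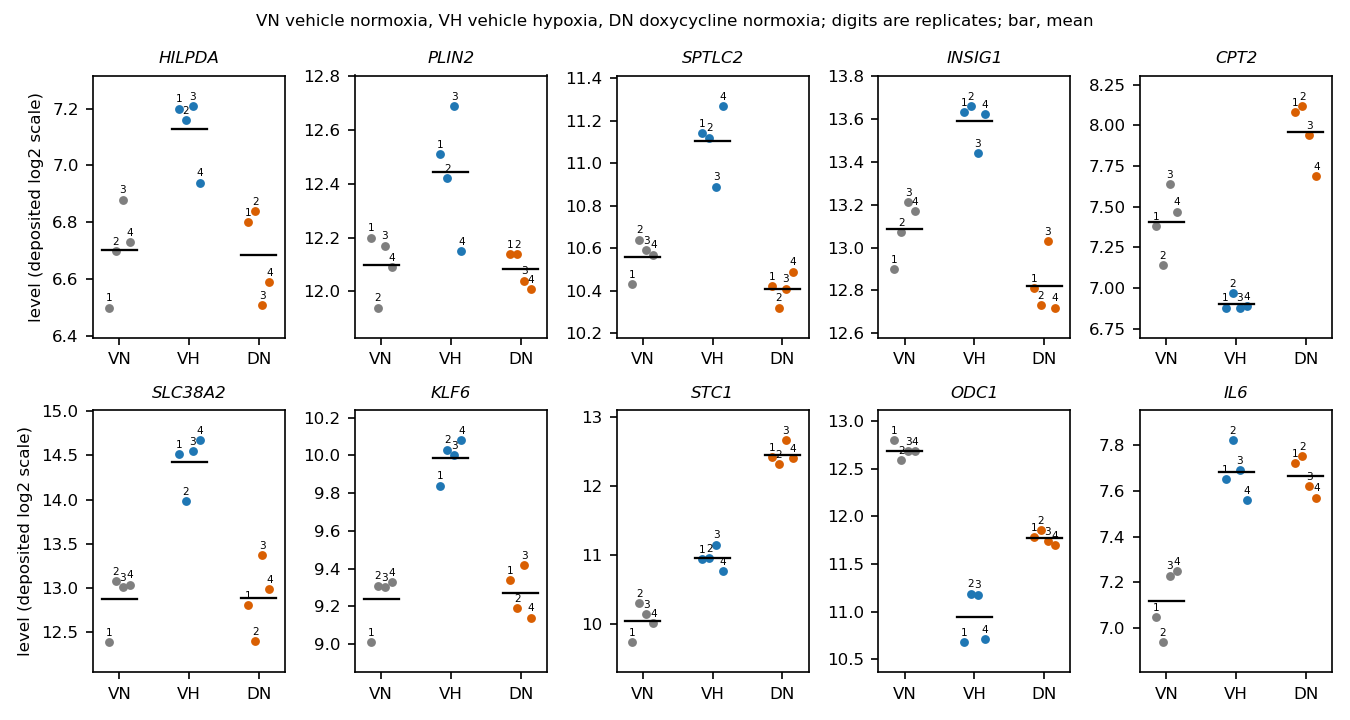
Level of 10 genes on each array, on the deposited log2 scale, in vehicle normoxia (VN), vehicle hypoxia (VH) and doxycycline normoxia (DN); digits are replicate numbers and bars are means. Hypoxia stood apart for HILPDA, SPTLC2, SLC38A2 and KLF6, both stresses moved CPT2 to opposite sides of the reference, both raised STC1 and lowered ODC1 to different extents, and IL6 was alike in both; in PLIN2 hypoxia replicate 4 at 12.15 lay next to the depleted arrays.

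Of 23 measured genes of triglyceride and glycerolipid synthesis, 2 were higher (8.7%, against 7.76% of all genes) and 5 lower (21.7%, against 3.73%) after depletion. The hairpin targets were among the lower ones, and the share of higher ones was near that of all genes. LPIN1, the phosphatidate phosphatase that feeds diacylglycerol synthesis, averaged 10.09 ± 0.10 (SD, n = 4) against 10.45 to 10.58 (-0.42 ± 0.09, reference 10.20, adjusted p = 0.00795). AGPAT1 and GPAM, earlier acyltransferases of the same route, were higher by 0.39 ± 0.07 (reference 6.78, adjusted p = 0.00266) and 0.35 ± 0.08 (reference 5.53, adjusted p = 0.0105). For AGPAT1 hypoxia was called below the reference (-0.28, adjusted p = 0.0345) and depletion was not called (0.11, adjusted p = 0.39). AGPAT2, of the same family and chosen after its values were seen, went the other way (-0.49 ± 0.11, reference 7.31, adjusted p = 0.00965). The call of GPAM was lost with arrays centred on their medians and by the methods' t-test. Of 30 genes of the lipid droplet coat and of lipolysis, 6 were higher (20%, against 7.76% of all genes) and 4 lower (13.3%, against 3.73%). The lower count fell to 1 without vehicle hypoxia replicate 1, without its replicate 2 or without doxycycline normoxia replicate 1. HILPDA, which restrains lipolysis and is a HIF target, was at 6.80, 6.84, 6.51 and 6.59 against 7.20, 7.16, 7.21 and 6.94, with a reference of 6.50, 6.70, 6.88 and 6.73 that overlapped depletion (-0.44 ± 0.10, adjusted p = 0.00769). PLIN2, the main droplet coat protein, was at 12.14, 12.14, 12.04 and 12.01 against 12.51, 12.42, 12.69 and 12.15. Its difference of -0.36 ± 0.11 barely passed (adjusted p = 0.0442, reference 12.10), and the call held in 12 of 27 alternative settings. PNPLA3, a droplet lipase, was higher by 0.36 ± 0.04 (reference 5.39, adjusted p = 8.27e-05), and so was FABP5, a fatty acid carrier, by 0.48 ± 0.07 (reference 7.46, adjusted p = 0.000484). G0S2, an inhibitor of triglyceride lipase that was chosen after its values were seen, was higher by 0.58 ± 0.13 (reference 9.94, adjusted p = 0.00726).

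Some genes for burning fatty acids were higher after depletion than in hypoxia. Of 32 genes of fatty acid oxidation and carnitine, 4 were higher (12.5%, against 7.76% of all genes) and 0 lower (against 3.73%) by limma. Without vehicle hypoxia replicate 4 there were 4 lower. The median difference of the list was 0.05, against 0.01 over all genes. CPT2, the inner-membrane carnitine acyltransferase, was at 8.08, 8.12, 7.94 and 7.69 against 6.88, 6.97, 6.88 and 6.89, with the reference mean of 7.41 between them (1.06 ± 0.11, adjusted p = 3.02e-05). CROT, its peroxisomal counterpart, was at 9.06 to 9.38 against 7.74 to 8.26 (1.25 ± 0.11, reference 8.28, adjusted p = 5.76e-06). HADHB, a subunit of the mitochondrial trifunctional protein, differed by 0.51 ± 0.09 (reference 9.71, adjusted p = 0.00163), while CPT1A, the rate-setting outer enzyme, chosen after its values were seen, was at -0.18 ± 0.15 and not called (reference 9.05, adjusted p = 0.522).

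Fatty acid and sterol synthesis split within the lists. SCD, the oxygen-dependent stearoyl-CoA desaturase, was at 17.10, 17.05, 17.12 and 16.96 against 17.12, 17.12, 16.80 and 16.87, and the groups overlapped (0.08 ± 0.07, reference 17.06, adjusted p = 0.542). These levels lie above 16, the log2 range of a 16-bit scanner, so how SCD values relate to scanner signal is unknown. Of 25 genes of fatty acid synthesis and desaturation 4 were higher (16%, against 7.76% of all genes) and 1 lower (4%, against 3.73%). ACSL5, which activates long-chain fatty acids, was higher by 0.91 ± 0.09 (reference 7.07, adjusted p = 1.31e-05) and ACLY, which makes cytosolic acetyl-CoA, by 0.51 ± 0.09 (reference 15.36, adjusted p = 0.00165). For ACLY hypoxia was called below the reference (-0.37, adjusted p = 0.0261) and depletion was not called (0.15, adjusted p = 0.342). ELOVL2, an elongase of polyunsaturated fatty acids, was higher in hypoxia at 9.33 to 9.38 against 8.84 to 9.02 (-0.42 ± 0.08, reference 8.88, adjusted p = 0.003). Of 26 genes of cholesterol synthesis and the SREBP system 4 were higher (15.4%, against 7.76%) and 2 lower (7.69%, against 3.73%), with 2 higher without doxycycline normoxia replicate 4. INSIG1, the sterol-sensing retention protein of SREBP, was at 12.81, 12.73, 13.03 and 12.72 against 13.63, 13.66, 13.44 and 13.62 (-0.77 ± 0.09, reference 13.09, adjusted p = 4.16e-05). Against the reference hypoxia was called, at 0.50, and depletion was not, at -0.26 (adjusted p = 0.067). ABCA1, the cholesterol exporter, was at 10.79 to 11.21 against 9.64 to 10.41 (0.95 ± 0.19, reference 9.49, adjusted p = 0.00356).

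Of 32 ceramide and sphingolipid genes 3 were higher and 3 lower, a share of 9.38% each way against 7.76% and 3.73% of all genes. Without vehicle hypoxia replicate 4 there were 5 lower. The lower genes were high in hypoxia alone: SPTLC2, a subunit of the enzyme that starts sphingolipid synthesis, was at 11.14, 11.12, 10.89 and 11.27 in hypoxia against 10.42, 10.32, 10.41 and 10.49, with a reference mean of 10.56 (-0.70 ± 0.09, adjusted p = 9.19e-05). UGCG, which glucosylates ceramide, differed by -0.47 ± 0.11 (reference 11.63, adjusted p = 0.0104), a call lost with the 8 compared arrays alone and by the methods' t-test. ACER3, an alkaline ceramidase, differed by -0.61 ± 0.11 (reference 7.21, adjusted p = 0.00193). SMPD1, the acid sphingomyelinase that releases ceramide, was higher after depletion than in hypoxia by 0.73 ± 0.15 (reference 8.72, adjusted p = 0.00505), as was the ceramide synthase CERS5 by 0.59 ± 0.11 (reference 8.61, adjusted p = 0.00308). For CERS5 hypoxia was called below the reference (-0.44, adjusted p = 0.0345) and depletion was not called (0.16, adjusted p = 0.425). For SMPD1 neither was called against the reference (depletion 0.48, adjusted p = 0.0602, and hypoxia -0.25, adjusted p = 0.307).

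**Figure D4:**
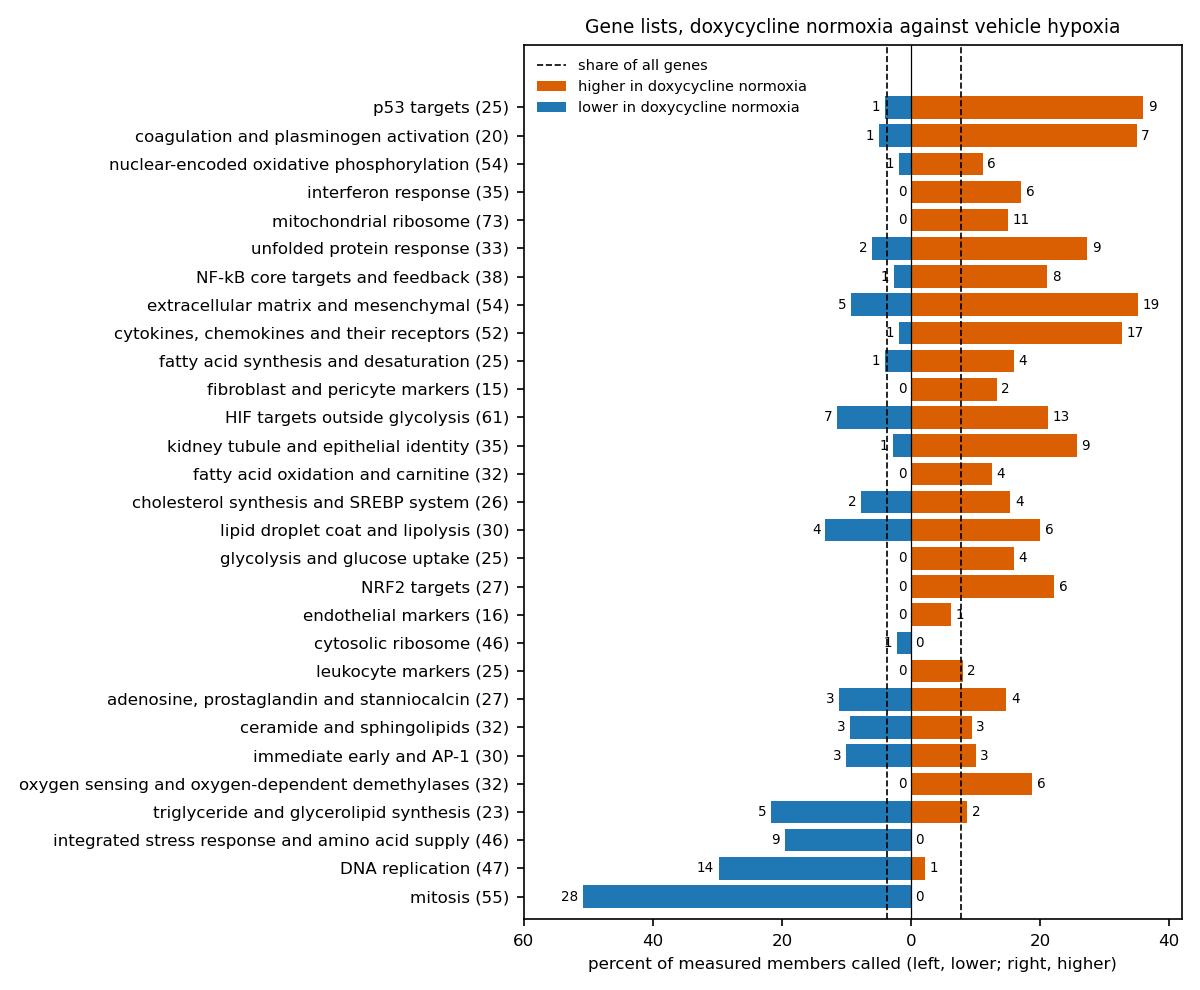
Each bar gives the percent of a list's measured members (number in brackets) called lower (left, blue) or higher (right, orange) in doxycycline normoxia than in vehicle hypoxia, with the count at its end and the lists ordered by median difference; dashed lines mark the shares of all genes, 7.76% higher and 3.73% lower. Mitosis (28 lower of 55) and DNA replication (14 of 47) extend furthest to the left, and p53 targets (9 of 25), extracellular matrix (19 of 54) and coagulation (7 of 20) furthest to the right.

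Of 55 measured mitosis genes 28 were lower after depletion (50.9%, the highest share among the lists, against 3.73% of all genes). By limma 0 were higher (against 7.76%), and the median was -0.78. The mean level of the list was 8.49, 8.40, 8.85 and 8.61 on the depleted arrays and 9.35, 9.46, 9.09 and 10.02 on the hypoxic arrays, where replicate 4 stood above the others. The reference, at 8.76, 9.27, 9.11 and 9.12, overlapped both. Without that hypoxic array 26 members were lower, and 18 without doxycycline normoxia replicate 1 or without its replicate 2, and 16 by the methods' t-test. PRC1, which bundles the spindle midzone, was at 10.10, 10.13, 10.04 and 10.08 against 11.41, 11.29, 10.96 and 11.21, with a reference mean of 11.08 (-1.13 ± 0.13, adjusted p = 5.6e-05). CENPA, the centromeric histone, was at 8.81 to 8.90 against 9.65 to 9.94 (-0.97 ± 0.10, reference 9.50, adjusted p = 2.04e-05). FOXM1, a transcription factor of the late cell cycle, was at 10.70 to 10.97 against 11.32 to 11.95 (-0.93 ± 0.14, reference 11.47, adjusted p = 0.000438). CENPF and ECT2, among the largest decreases, rested on uneven arrays: CENPF was at 7.45, 7.90, 7.70 and 10.88 in hypoxia against 5.86, 5.71, 6.97 and 6.26 (-2.28 ± 0.65, reference 6.57, adjusted p = 0.0328). Its call held in 21 of 27 alternative settings and was lost without doxycycline normoxia replicate 1, 2 or 4. ECT2 was at 10.64, 10.85, 10.31 and 12.34 against 9.07, 8.65, 10.26 and 9.49 (-1.67 ± 0.48, reference 9.80, adjusted p = 0.0333), and its call held in 17 of 27 and was lost without vehicle hypoxia replicate 1, 2 or 4 or doxycycline normoxia replicate 1, 2 or 4.

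Of 47 measured DNA replication genes 14 were lower after depletion (29.8%, against 3.73% of all genes), 1 was higher (2.13%, against 7.76%) and the rest were not called. The median was -0.31, and 22 were lower without vehicle hypoxia replicate 3. The mean level of the list was 8.15, 8.20, 8.08 and 8.08 after depletion, below every hypoxic array (8.55, 8.62, 8.31 and 8.41) and every reference array (8.52, 8.61, 8.69 and 8.65). Hypoxic replicates 3 and 4 lay below every reference array. Set against the reference, depletion had 27 lower members and hypoxia 0 by limma, with medians of -0.48 and -0.16. Of all genes 4.65% were lower in each of these comparisons. MCM3, a subunit of the replicative helicase, was at 9.86, 10.05, 9.82 and 9.84 against 10.71, 10.77, 10.56 and 10.42 with a reference mean of 10.69 (-0.72 ± 0.12, adjusted p = 0.000939). MCM6, another subunit, was at 9.87, 9.88, 9.85 and 9.80 against 11.02, 11.11, 10.28 and 10.85 with a reference of 11.03 (-0.96 ± 0.16, adjusted p = 0.000978). MCM5, chosen after its values were seen, averaged 9.26 ± 0.16 after depletion and 10.26 ± 0.21 in hypoxia (SD, n = 4 each; reference 10.69, adjusted p = 0.00114). Not every subunit was called: MCM2, likewise chosen after its values were seen, differed by -0.23 ± 0.15 (reference 8.46, adjusted p = 0.369). POLE, the leading-strand polymerase, was at 6.70, 6.91, 6.76 and 6.70 against 7.46, 7.47, 7.48 and 7.24 (-0.64 ± 0.09, reference 7.50, adjusted p = 0.000354). CCNE1, the cyclin of replication entry, was the 1 higher member (0.53 ± 0.10, reference 9.78, adjusted p = 0.00257). E2F1, the transcription factor, was lower by 0.64 (-0.64 ± 0.12, reference 7.32, adjusted p = 0.00192; chosen after its values were seen).

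**Figure D5:**
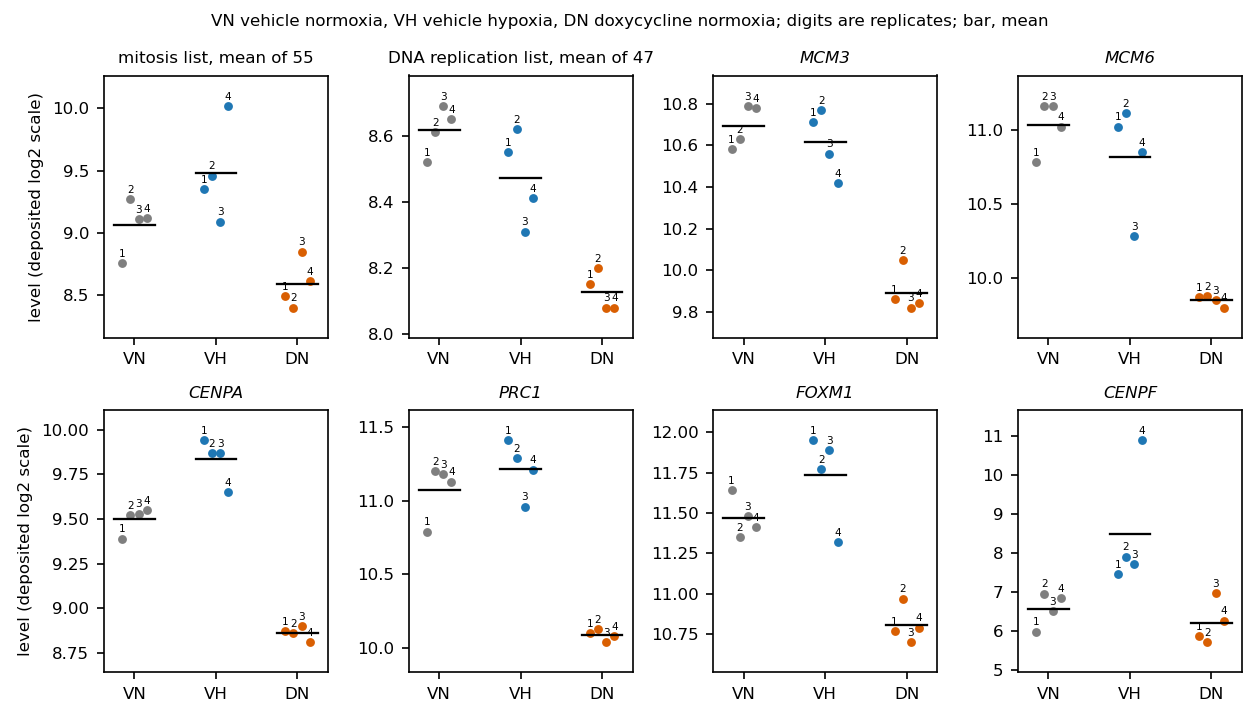
Mean level of the mitosis and DNA replication lists, and levels of 6 of their genes, on each array of vehicle normoxia (VN), vehicle hypoxia (VH) and doxycycline normoxia (DN), on the deposited log2 scale; digits are replicate numbers and bars are means. Depleted arrays lay lowest for MCM3, MCM6, CENPA, PRC1 and FOXM1 with no overlap, while the mitosis mean and CENPF show hypoxia replicate 4 above its group, at 10.02 and 10.88.

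E2F factors are known to drive replication genes through sites near their starts, and HIF acts through a short response element. The promoter windows below mark some of these letters in genes of each side. The marking does not compare the sides. All windows come from RefSeq (GRCh38.p14), run from 250 bases before to 50 bases after the start and are written in the direction of the gene. In the helicase and polymerase windows capitals mark only the E2F letters TTTCCCGC or TTTGGCGC on either strand. The response element core also occurs in the MCM3 and MCM6 windows and is not marked there. The windows are chr6:52284693-52284992 for MCM3, chr2:135876394-135876693 for MCM6 and chr12:132687293-132687592 for POLE, all on the minus strand.
MCM3: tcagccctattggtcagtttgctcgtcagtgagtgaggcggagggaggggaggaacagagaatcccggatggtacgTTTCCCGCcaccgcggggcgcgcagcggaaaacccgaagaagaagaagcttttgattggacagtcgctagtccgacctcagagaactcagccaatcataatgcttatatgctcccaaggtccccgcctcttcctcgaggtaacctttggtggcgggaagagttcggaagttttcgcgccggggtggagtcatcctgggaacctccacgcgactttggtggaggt
MCM6: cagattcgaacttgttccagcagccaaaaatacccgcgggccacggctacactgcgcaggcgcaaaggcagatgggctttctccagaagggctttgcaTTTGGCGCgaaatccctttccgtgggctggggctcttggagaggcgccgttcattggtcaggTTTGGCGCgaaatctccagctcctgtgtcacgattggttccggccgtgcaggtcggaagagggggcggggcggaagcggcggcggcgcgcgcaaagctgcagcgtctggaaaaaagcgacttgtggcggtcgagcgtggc
POLE: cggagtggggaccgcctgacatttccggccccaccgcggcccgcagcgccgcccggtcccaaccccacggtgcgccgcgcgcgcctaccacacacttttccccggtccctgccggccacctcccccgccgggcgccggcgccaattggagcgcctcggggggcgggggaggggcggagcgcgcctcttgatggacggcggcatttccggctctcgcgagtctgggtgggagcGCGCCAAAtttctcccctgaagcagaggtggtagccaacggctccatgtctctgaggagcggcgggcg
The window of KLF6, high in hypoxia alone, lies at chr10:3785160-3785459 on the minus strand. Capitals mark the response element core ACGTG or GCGTG on either strand, and where CACGTG appears both strands match and overlap.
KLF6: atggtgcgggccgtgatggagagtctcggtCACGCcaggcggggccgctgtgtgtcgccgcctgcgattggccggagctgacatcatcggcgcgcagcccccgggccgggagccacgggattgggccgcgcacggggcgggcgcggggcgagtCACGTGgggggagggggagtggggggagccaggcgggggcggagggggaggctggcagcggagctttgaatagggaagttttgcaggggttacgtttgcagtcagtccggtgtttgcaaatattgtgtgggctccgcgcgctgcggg
Counted in bases from the start site, the E2F letters begin at -174 in MCM3, at -152 and -90 in MCM6 and at -18 in POLE, where they lie on the opposite strand. Over all 35116 windows 2.27% held the E2F letters and 48.4% the response element core. Of the 14 lower replication genes 12 had windows, 16 in all, of which 8 held E2F letters, and of the 55 windows of the measured replication genes 21 did. The core lay in 12 of the 16 windows of the lower replication genes (75%). For the HIF target list 56 of 65 windows held the core, with 85.7% of windows for the lower and for the higher members alike. The core is thus common in any window, and a match is a description and not a bound site.

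HIF targets did not move as a block. Of 61 measured targets outside glycolysis 13 were higher (21.3%, against 7.76% of all genes) and 7 lower (11.5%, against 3.73%), with a median of 0.05. The higher count was 7 without vehicle hypoxia replicate 1 or without doxycycline normoxia replicate 3. PPP1R3C, a glycogen-targeting phosphatase subunit, was at 8.98, 9.11, 9.08 and 8.85 after depletion against 7.80, 7.97, 7.80 and 7.81 (1.16 ± 0.11, reference 8.22, adjusted p = 6.54e-06). TMEM45A (0.63 ± 0.09, reference 7.57, adjusted p = 0.00028) and BHLHE41, a circadian repressor (0.57 ± 0.09, reference 7.73, adjusted p = 0.000429), were also higher after depletion. STC2, the paralogue of STC1, was higher in hypoxia, at 8.29 to 8.41 against 7.86 to 8.15 (-0.31 ± 0.07, reference 7.97, adjusted p = 0.00589), a call lost with the 8 compared arrays alone and by the methods' t-test. Most well-known HIF targets chosen after their values were seen were not called: VEGFA differed by -0.16 ± 0.07 (reference 9.79, adjusted p = 0.141), EGLN3 by 0.19 ± 0.10 (reference 8.80, adjusted p = 0.275) and SLC2A1 by 0.02 ± 0.10 (reference 14.99, adjusted p = 0.933). Nor were NDRG1 (-0.15, reference 14.11), BNIP3 (0.15, reference 10.97), ANGPTL4 (0.19, reference 6.17) and PDK1 (-0.03, reference 6.62). The same held for PGK1 (0.07, reference 15.61), LDHA (-0.23, reference 12.30) and SLC2A3 (0.28, reference 8.42), with adjusted p between 0.0954 and 0.893 for these added genes. Others chosen likewise were called in either direction. ADM, which encodes the vasodilator adrenomedullin, differed by 0.53 ± 0.12 (reference 7.30, adjusted p = 0.00906) and the carbonic anhydrase CA12 by 0.23 ± 0.06 (reference 15.61, adjusted p = 0.0191). LOX, which crosslinks collagen, differed by -0.46 ± 0.11 (reference 6.25, adjusted p = 0.0118) and DDIT4, an inhibitor of mTORC1, by -0.40 ± 0.12 (reference 12.12, adjusted p = 0.0473). For CA9 every probe set was left out by the rule of 1 symbol, and no value is given. EPAS1, which encodes HIF2α, was higher after depletion, at 10.09 to 10.25 against 9.07 to 9.70 (0.76 ± 0.11, reference 9.63, adjusted p = 0.000303).

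Of 25 glycolysis genes 4 were higher (16%, against 7.76% of all genes) and 0 lower (against 3.73%) by limma, but without vehicle hypoxia replicate 4 there were 6 lower. ALDOC, an aldolase isoform, was at 8.46 to 8.67 against 6.92 to 7.70 (1.23 ± 0.15, reference 7.97, adjusted p = 7.08e-05). Of 54 genes of oxidative phosphorylation 6 were higher, a share of 11.1% near the 7.76% of all genes. There was 1 lower (SDHA; 1.85%, against 3.73% of all genes), a call lost without vehicle hypoxia replicate 1 or doxycycline normoxia replicate 4. Of 73 genes of the mitochondrial ribosome 11 were higher (15.1%, against 7.76% of all genes) and 0 lower (against 3.73%) by limma. The ribosome count was 7 without vehicle hypoxia replicate 1 and 3 by the methods' t-test. Without vehicle hypoxia replicate 4 it was 9 higher and 3 lower. NDUFA7, of complex I, was at 10.91 to 11.20 against 9.93 to 10.48 (0.90 ± 0.11, reference 10.68, adjusted p = 7.68e-05). Against the reference, the mitochondrial ribosome had 1 higher and 2 lower of 73 members after depletion, where all genes had 4.43% and 4.65%. In hypoxia it had 0 higher and 11 lower, where all genes had 2.26% and 4.65%.

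Of 52 cytokine, chemokine and receptor genes 17 were higher (32.7%, against 7.76% of all genes) and 1 lower (1.92%, against 3.73%). The median was 0.08, and the lower count was 3 without vehicle hypoxia replicate 4. CCL2 and CCL5 were chosen after their values were seen. CCL2, the monocyte chemoattractant, was at 15.88, 15.85, 15.78 and 15.91 against 14.70, 15.47, 14.11 and 14.97 (1.04 ± 0.20, reference 15.15, adjusted p = 0.00254). CCL5, a T cell chemoattractant, was at 9.01 to 9.49 against 7.78 to 8.88 (1.02 ± 0.19, reference 9.07, adjusted p = 0.00255), and here hypoxia was the group below the reference. IL1B was higher by 0.72 ± 0.09 around a low level (reference 4.54, adjusted p = 9.9e-05). CSF1, the macrophage growth factor, was the 1 lower member, at 10.47 to 10.69 against 11.02 to 11.58 (-0.74 ± 0.10, reference 10.98, adjusted p = 0.000192). Of 38 core NF-κB targets and feedback genes 8 were higher (21.1%, against 7.76% of all genes) and 1 lower (2.63%, against 3.73%). TNFAIP3, a feedback inhibitor, was higher by 0.54 ± 0.09 (reference 9.92, adjusted p = 0.00083), while NFKBIA, which holds NF-κB in the cytoplasm, did not pass (0.36 ± 0.17, reference 12.64, adjusted p = 0.201) although its depleted arrays, 13.01 to 13.20, lay above every hypoxic array, where replicate 4 was at 12.10.

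Of 54 matrix and mesenchymal genes 19 were higher and 5 lower (35.2% and 9.26%, against 7.76% and 3.73% of all genes), with a median of 0.09 and 33 members above 0. COL5A1, a fibrillar collagen chain, was at 6.37, 6.48, 6.42 and 6.28 against 5.41, 5.55, 5.41 and 5.67 (0.88 ± 0.06, reference 5.62, adjusted p = 1.03e-06). SPARC, a collagen-binding matricellular protein, was at 14.67 to 14.87 against 13.92 to 14.32 (0.70 ± 0.08, reference 14.14, adjusted p = 2.99e-05), and LAMC1, a laminin chain, at 13.68 to 13.84 against 13.26 to 13.36 (0.46 ± 0.05, reference 13.29, adjusted p = 4.38e-05). In these 3 the reference lay with hypoxia. FN1, fibronectin, went the other way, with 14.65, 14.30, 14.55 and 14.32 in hypoxia against 13.90, 14.02, 14.06 and 14.03 and a reference of 13.86 (-0.46 ± 0.09, adjusted p = 0.00345). TNC, tenascin-C, was lower after depletion with its reference of 11.78 on the side of hypoxia (-0.46 ± 0.10, adjusted p = 0.00562), a call lost with the 8 compared arrays alone and by the methods' t-test.

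Of 20 genes of coagulation and plasminogen activation 7 were higher (35%, against 7.76% of all genes) and 1 lower (5%, against 3.73%). F3, the tissue factor that starts coagulation, averaged 8.15 ± 0.13 (SD, n = 4) against 6.61, 6.89, 6.80 and 7.11, with a reference mean of 6.63 (1.29 ± 0.10, adjusted p = 1.53e-06). PLAU, the urokinase that activates plasminogen, was at 6.49 to 6.65 against 5.06 to 5.44 with the reference of 5.77 between (1.26 ± 0.08, adjusted p = 1.76e-07). F2RL2, a thrombin receptor, was higher by 1.18 ± 0.13 (reference 12.21, adjusted p = 3.44e-05). THBD, thrombomodulin, which turns thrombin to an anticoagulant role, was lower by 0.34 (-0.34 ± 0.06, reference 6.03, adjusted p = 0.00129).

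Of 25 p53 targets 9 were higher (36%, against 7.76% of all genes) and 1 lower (4%, against 3.73%), with a median of 0.26. The lower one (PLK2) lost its call without vehicle hypoxia replicate 1 or doxycycline normoxia replicate 1, 2 or 4. TP53I3, an oxidoreductase, was at 8.38, 8.51, 8.33 and 8.33 against 7.08, 7.16, 7.18 and 6.96, and the reference, 7.74, 7.76, 7.73 and 7.81, lay between with no overlap (1.29 ± 0.07, adjusted p = 7.93e-08). CDKN1A, the cyclin-dependent kinase inhibitor p21, was at 8.90 to 9.08 against 7.68 to 8.30 (0.94 ± 0.11, reference 8.63, adjusted p = 6e-05). Against the reference the list had 1 higher and 1 lower of 25 members after depletion, where all genes had 4.43% and 4.65%. In hypoxia it had 0 higher and 7 lower, where all genes had 2.26% and 4.65%.

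Of 46 genes of the integrated stress response and amino acid supply 9 were lower after depletion (19.6%, against 3.73% of all genes) and 0 higher (against 7.76%) by limma. There were 17 lower without vehicle hypoxia replicate 4, 6 without its replicate 1 or 2 or without doxycycline normoxia replicate 4, and 2 by the methods' t-test. Beside SLC38A2, these were led by SLC7A1, the cationic amino acid transporter, at 9.53, 9.76, 9.73 and 9.39 against 10.58, 10.58, 10.60 and 10.10 (-0.86 ± 0.11, reference 10.48, adjusted p = 0.000155). For SLC7A1 the reference lay with hypoxia, and for CTH, which makes cysteine from cystathionine, it lay near depletion (-0.79 ± 0.14, reference 9.11, adjusted p = 0.00124). ATF4, the transcription factor of this response, chosen after its values were seen, differed by -0.39 ± 0.09 (reference 13.03, adjusted p = 0.00935). Of 33 genes of the unfolded protein response 9 were higher (27.3%, against 7.76% of all genes) and 2 lower (6.06%, against 3.73%), or 4 lower without vehicle hypoxia replicate 4. The disulphide isomerase PDIA4 was higher by 0.67 ± 0.08 (reference 13.14, adjusted p = 9.1e-05) and the chaperone HYOU1 by 0.50 ± 0.10 (reference 10.95, adjusted p = 0.00293). For HYOU1 hypoxia was called below the reference (-0.39, adjusted p = 0.0273) and depletion was not called (0.12, adjusted p = 0.485). XBP1, a transcription factor of the same response, was lower by 0.49 (-0.49 ± 0.09, reference 10.57, adjusted p = 0.00303).

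Of 35 interferon response genes 6 were higher (17.1%, against 7.76% of all genes) and 0 lower (against 3.73%) by limma, but 2 were higher without vehicle hypoxia replicate 1 or doxycycline normoxia replicate 2, 3 without doxycycline normoxia replicate 1 and 10 without vehicle hypoxia replicate 2. USP18, a protease that removes the interferon-induced modifier ISG15, led them (1.37 ± 0.24, reference 9.45, adjusted p = 0.00141). Of 27 NRF2 targets 6 were higher (22.2%, against 7.76%) and 0 lower (against 3.73%) by limma. Among the higher ones was HMOX1, haem oxygenase 1, at 11.69, 11.91, 11.75 and 11.93 against 10.36, 10.33, 11.22 and 9.74 (1.41 ± 0.23, reference 11.15, adjusted p = 0.000781). Of 35 kidney tubule and epithelial genes 9 were higher (25.7%, against 7.76%) and 1 lower (2.86%, against 3.73%). The higher ones were led after TMEM52B by the kidney cadherin CDH6, at 11.61, 11.43, 12.05 and 11.69 against 10.08, 10.15, 9.91 and 10.89 (1.44 ± 0.20, reference 10.50, adjusted p = 0.000212). Of 32 genes of oxygen sensing and oxygen-dependent demethylases 6 were higher (18.8%, against 7.76%) and 0 lower (against 3.73%) by limma. Of 46 cytosolic ribosome genes 0 were higher (against 7.76%) and 1 lower (2.17%, against 3.73%). Without vehicle hypoxia replicate 4 the lower counts were 2 for NRF2 targets, 2 for kidney genes, 2 for oxygen sensing and 2 for the cytosolic ribosome. Among markers of other cells 2 of 25 for leukocytes (8%), 1 of 16 for endothelium (6.25%) and 2 of 15 for fibroblasts (13.3%) were higher, against 7.76% of all genes, and 0 were lower by limma, against 3.73%. The leukocyte integrin ITGAX was the largest of these at 1.16 ± 0.08 (reference 6.30, adjusted p = 5.18e-07). The smooth muscle actin gene ACTA2, of the fibroblast and pericyte list, was higher by 0.71 ± 0.11 (reference 7.04, adjusted p = 0.000527), while the defining leukocyte marker PTPRC lay at 3.28 and 3.26 (0.02 ± 0.06, adjusted p = 0.889).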

How the data were processed

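RNA of 16 samples of A498 cells (250 ng each, biotin-labelled) was hybridised to 1 array per sample, and 4 groups of 4 follow from the titles. The deposited log2 values had been made by the authors with RMA (background correction, quantile normalization and a summary over probes) in Transcriptome Analysis Console; no version is named. They span 1.71 to 19.85, above the 16 that a 16-bit scanner allows, so the size of a fold applies to this scale alone. Array medians lay between 3.91 and 4.11, no arrays were identical, and 0 other columns were present. Of 70523 probe sets 23781 had 1 gene symbol, 1543 had several and 45199 had none in the platform table. Symbols were updated through RefSeq, and the brightest probe set was kept for each of 22411 genes. How many arrays were run limits the precision.

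Differences were fitted with limma 3.58.1 in R 4.3.3 on all 16 arrays as 4 group means, with an intensity trend and Benjamini-Hochberg adjustment over all genes at 0.05. The script was tested on simulated data. Genes named were the hairpin targets with SCD, PLIN2, HILPDA, CA9 and NFKBIA, the 12 largest increases and 12 largest decreases among called genes with groups that did not overlap and a brighter mean above 4.89, and up to 3 members per direction of each gene list by adjusted p. Others are stated as chosen after their values were seen. The members and lists were chosen with earlier results of these data known. Samples were not paired by replicate number in the main fit. The deviations of arrays with the same number correlated at 0.35, 0.39, -0.55 and 0.17. These few values cannot show whether cultures were matched, and the labels do not say. Alternatives were leaving out each array, a replicate block, a filter on dim genes, the mean of probe sets, other centring and normalization, no trend, array weights, the 8 compared arrays alone, a 1.5-fold minimum, pairs of arrays left out and the methods' t-test. Figures were drawn with matplotlib 3.10.9.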

Additional observations from a re-analysis of the deposited data

Results flagged for a closer look

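Of 408 groups of 4 arrays, 136 genes in 3 groups, 28 held an array whose gap to the nearest of the others exceeded Dixon's 95% limit (6.86%). Chance alone passes about 1 group in 20, and the values are given with no weighing. Vehicle hypoxia replicate 4, the array that stood apart over all genes, was the distant one for 6 genes: CENPF at 10.88 against 7.45 to 7.90, IL7R at 5.47 against 5.16 to 5.21, NEXN at 9.85 against 8.30 to 8.43, NFKBIA at 12.10 against 12.89 or more, POLE at 7.24 against 7.46 to 7.48 and SLC7A1 at 10.10 against 10.58 to 10.60. Vehicle hypoxia replicate 2 was so for 4: CPT2 at 6.97 against 6.88 to 6.89, HLA-DMA at 7.40 against 6.83 to 6.88, PPP1R3C at 7.97 against 7.80 to 7.81 and TMEM45A at 7.94 against 7.73 to 7.75. Vehicle hypoxia replicate 3 was so for 1: ACSL5 at 6.73 against 6.52 to 6.55. Doxycycline normoxia replicate 2 was distant for 3: HLA-DMA at 8.12 against 7.85 to 7.87, HYOU1 at 11.24 against 11.01 to 11.02 and XBP1 at 10.24 against 10.05 to 10.08. In the reference, replicate 1 was distant for 7: CA12 at 15.45 against 15.66 to 15.67, GPAM at 5.33 against 5.58 to 5.63, IL1B at 4.57 against 4.53, KLF6 at 9.01 against 9.30 to 9.33, PRC1 at 10.79 against 11.13 to 11.20, RDH10 at 13.30 against 13.55 to 13.60 and SLC38A2 at 12.39 against 13.01 to 13.08. Reference replicate 2 was distant for 7: AJUBA at 11.33 against 11.68 to 11.71, ALDOC at 7.74 against 8.03 to 8.06, CPA4 at 6.89 against 7.16 to 7.20, CSF1 at 10.90 against 11.01, MCM2 at 8.16 against 8.55 to 8.58, MCM5 at 10.45 against 10.75 to 10.79 and NFKBIA at 12.51 against 12.68 to 12.69.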

How the results depend on the processing

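The differences in DGAT1 and DGAT2 kept their direction and their call in every alternative run. Leaving out 1 array at a time gave 1270 to 1921 higher and 536 to 1242 lower genes. The lowest lower counts came without vehicle hypoxia replicate 1 (536) and without doxycycline normoxia replicate 4 (556), and the highest without vehicle hypoxia replicate 4 (1242), where higher genes made up 55.9% of the calls in place of 67.5%. Without the pair of arrays at the ends of the deviations (replicate 4 of vehicle hypoxia and of doxycycline hypoxia) 1358 genes were lower. Without another pair, vehicle hypoxia replicate 4 and vehicle normoxia replicate 1, there were 1383. Array weights gave 3525 higher and 2979 lower, the 8 compared arrays alone 970 and 392, the methods' t-test 803 and 284, and a minimum of 1.5-fold 365 and 256. The causes were not tested. With the replicate number as a block there were 1389 higher and 629 lower genes, and 3 of 8 arrays correlated best with the array of their own number. Among single genes named by the rule, 3283 values kept their side of the threshold and 164 lost the call, most often JUN, RPS23, PLIN2 and MYC. Of those printed, ACER3, ACLY, AGPAT1, CERS5, CTH, EMP1, FN1, HILPDA, HMOX1, HYOU1, MRPL40, NEXN and USP18 lost the call by the methods' t-test and under no other alternative. Genes chosen after their values were seen were not followed through the alternatives, so whether their calls hold is not known. SCD, which was not called, changed sign with array weights (-0.04).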
